A study of Mus musculus with 38 samples.

Results

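The comparison covered here is black rice feeding against a control diet in the F-coded libraries of the Apc set, 3 libraries against 3, which were 6 of the 38 libraries of the series. The libraries were taken by their labels: each was titled Apc and F and carried the treatment black rice or control. The series measured the transcriptome of the intestinal tract in mouse models of colorectal cancer by bulk RNA sequencing, and the columns of the Apc count table were named Colon. The black rice F group was fed black rice, and the control F group was fed the control diet. The WT F group, also 3 libraries, had no treatment entry and is used here as a description of level. The 3 black rice and 3 control M-coded libraries of the same table gave the contrast against which the F difference was set. Apc is the tumour suppressor whose product targets beta-catenin for destruction, and mice with a mutant copy develop intestinal tumours. The labels named Apc without giving the allele, strain, age, tumour burden, length of feeding or hour of collection, and they did not say whether the 3 libraries of a group came from separate animals. The p-values below therefore measure the spread between these libraries, which may not be the spread between animals.

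The colon wall is an epithelium over a lamina propria that holds plasma cells, wrapped in smooth muscle with an enteric nervous system. Plasma cells of the gut secrete dimeric IgA, joined by the J chain, and the epithelium carries it to the lumen through the polymeric immunoglobulin receptor. Cells make cholesterol through the mevalonate pathway, whose enzymes are transcribed together under the factor SREBP2 when sterol in the membrane is low.

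Expression is given in CPM, read counts scaled to library size with TMM factors, one value per library in the order of replicates 1, 2 and 3. Changes are log2 fold changes of black rice over control with their standard error (SE). Depth lay between 49.2 and 51.6 M reads in black rice libraries and between 44.8 and 54.7 M reads in control libraries, and mitochondrial transcripts took 12.2 to 15% and 11.3 to 13.3% of reads. The codes F and M matched the sex chromosomes: Xist, the RNA of the inactive X, was at 1130 CPM or more in all 9 F libraries of the table and at 0.815 CPM or less in all 9 M libraries, and summed Y-linked genes were at 0.363 CPM or less in F and 109 CPM or more in M. Genes of position along the gut differed between libraries of each diet. Hoxb13, a homeobox gene of the most distal hindgut, had 10.7, 55.2 and 214 CPM in black rice libraries, against 0.448, 183 and 171 CPM in control libraries. Hoxb6, expressed further forward, had 51.1, 91.4 and 3.08 CPM in black rice libraries, against 149, 50.5 and 3.05 CPM in control libraries. Both genes varied within each diet more than between the diets, and of the 24 Hox genes tested only Hoxa11 separated the groups.

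No gene passed the threshold of an adjusted p of 0.05 (edgeR quasi-likelihood test, Benjamini-Hochberg over 21624 genes), which is 0% of those tested. At an unadjusted p of 0.05, edgeR had 976 genes higher with black rice (4.51%) and 1239 lower (5.73%). The smallest edgeR adjusted p was 0.0538, shared by Derl3, Ighv9-3 and Prg2, all lower with black rice. All 3 black rice libraries lay above all 3 control libraries for 2044 genes (9.45%) and below them for 2386 genes (11%), and the log2 fold change was negative for 10696 genes (49.5%). DESeq2 called 201 of the 16587 genes to which it gave an adjusted p (1.21%), 70 higher and 131 lower. Limma-voom with quality weights called 103 (0.476%), 41 higher and 62 lower, and 87 genes were called by both, 36 higher and 51 lower. Genes below are therefore described by their levels, and each is stated as not passing in edgeR. The difference between the F and the M diet contrasts also passed for no gene in edgeR (0%), and 1923 genes had an unadjusted p under 0.05 there (8.89%).

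Transcripts of antibody-secreting cells formed the group that stood lowest with black rice. All 11 immunoglobulin constant chains and J chain genes tested were lower, 9 of them without overlap between the groups, against 11% of all genes, and their median log2 fold change was -2.45, against 0.01 over all genes. Igha encodes the IgA heavy chain. Igha had 541, 340 and 356 CPM in black rice libraries, against 1626, 1534 and 3589 CPM in control libraries, a log2 fold change of -2.45 ± 0.46 (SE, n = 3 each) with an adjusted p of 0.122 in edgeR, 0.0204 in limma-voom and 9.19e-06 in DESeq2. Every black rice library lay below every control library, and the 3 WT libraries, at 2330, 1819 and 712 CPM, lay above the black rice range too. Igkc, the kappa light chain, had 1164, 468 and 861 CPM in black rice libraries, against 3340, 3749 and 7831 CPM in control libraries. Its log2 fold change was -2.58 ± 0.50 (edgeR adjusted p = 0.122). Jchain had 260, 127 and 124 CPM in black rice libraries, against 520, 651 and 1421 CPM in control libraries, and its log2 fold change was -2.34 ± 0.47 (edgeR adjusted p = 0.137). In these 3 genes control replicate 3 was the highest of the 6 libraries, and replicates 1 and 2 of the control diet still lay above all black rice libraries.

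Chains of other antibody classes followed the same order with more scatter. Ighg2b had 10.9, 7.12 and 59.1 CPM in black rice libraries, against 106, 203 and 475 CPM in control libraries, a log2 fold change of -3.35 ± 0.80 (edgeR adjusted p = 0.224). Ighm, the IgM heavy chain, had 27.3, 23.2 and 91.8 CPM in black rice libraries, against 189, 134 and 573 CPM in control libraries. Ighg2c, Ighg3, Iglc2 and Iglc3 also lay lower in every black rice library. The groups overlapped for Iglc1, at 30.8, 116 and 21 CPM in black rice libraries, against 78.2, 87.4 and 225 CPM in control libraries, and for Ighg1, at 21, 1.91 and 9.45 CPM against 3.36, 31.2 and 15.6 CPM. Summed over the list, antibody constant chains took 1098 to 2072 CPM in black rice libraries, against 5941 to 14440 CPM in control libraries and 3482 to 8271 CPM in WT libraries. In tissue RNA, fewer antibody-secreting cells and less antibody RNA per cell cannot be told apart.

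The variable segments, which are joined to these constant chains during B cell development, were lower as well. Of 191 segments tested, 174 were lower and 104 of these did not overlap between the groups, against 11% of all genes. Their median log2 fold change was -2.86. Their summed level was 535, 288 and 281 CPM in black rice libraries, against 1233, 1237 and 3666 CPM in control libraries and 1720, 1259 and 470 CPM in WT libraries. Ighv9-3, a heavy chain segment, had 1.29, 1.73 and 1.82 CPM in black rice libraries, against 18.8, 17.6 and 55.8 CPM in control libraries, a log2 fold change of -4.25 ± 0.64 (edgeR adjusted p = 0.0538). Use of the segments was broad in 5 of the 6 libraries by the effective number, the exponential of the Shannon entropy of the segment shares. This number was 72.6, 31.9 and 75.6 segments in black rice libraries, against 90.4, 83.7 and 83.3 in control libraries. Black rice replicate 2 stood apart, with 24.5% of its segment reads on the lambda segment Iglv1. Some segments are close copies of each other, so reads may have been split or lost between them, and single segments are uncertain.

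**Figure D1:**
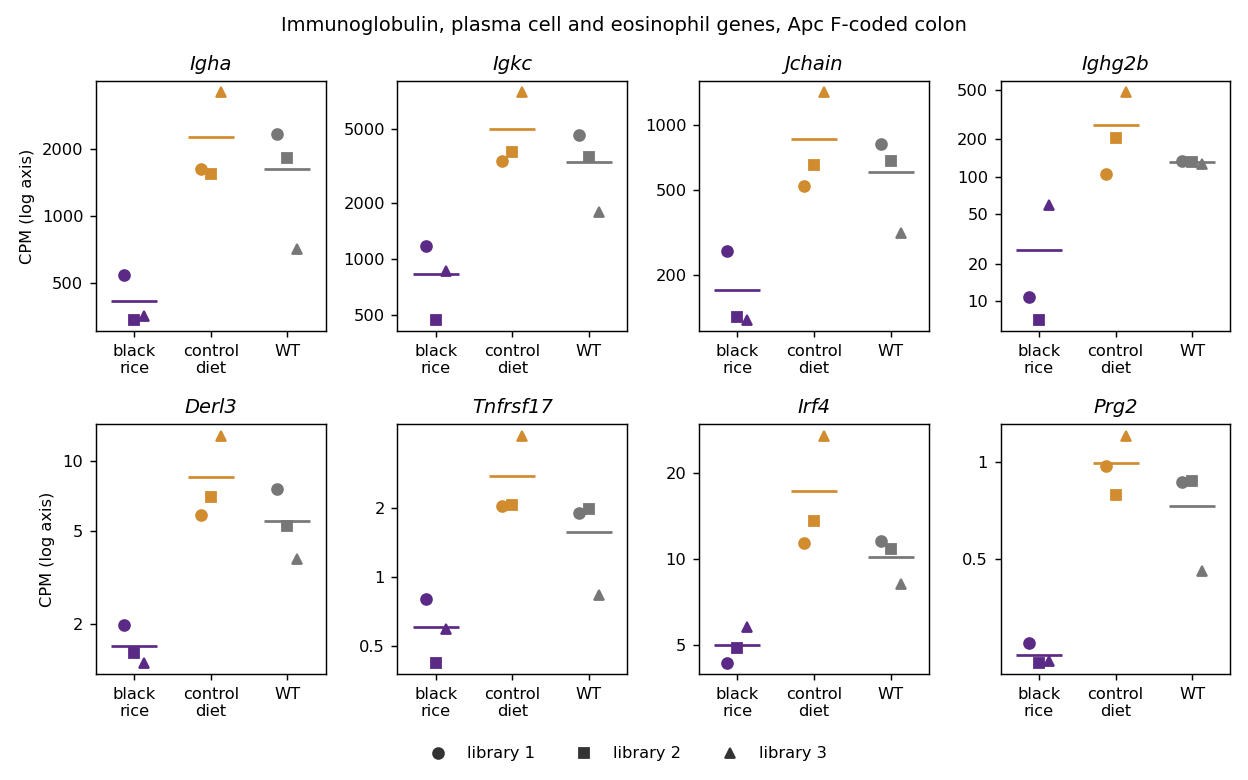
CPM on a log axis of 8 genes in each library, with black rice left of control and WT at the right, points for libraries and a line at the mean of the 3. Igha, Igkc, Jchain, Ighg2b, Derl3, Tnfrsf17, Irf4 and Prg2 lie lower in every black rice library than in every control library, and control replicate 3 is the highest for Igha at 3589 CPM.

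Genes that mark the plasma cell itself were also lower. All 10 plasma cell genes were lower, 6 without overlap, against 11% of all genes, with a median log2 fold change of -1.21. Derl3, a part of the machinery that removes misfolded protein from the endoplasmic reticulum of secretory cells, had 1.97, 1.49 and 1.35 CPM in black rice libraries, against 5.85, 6.98 and 12.8 CPM in control libraries. Its log2 fold change of -2.41 ± 0.35 had an adjusted p of 0.0538 in edgeR, 0.0204 in limma-voom and 6.87e-08 in DESeq2. Tnfrsf17, the survival receptor BCMA of long-lived plasma cells, had 0.80, 0.419 and 0.593 CPM in black rice libraries, against 2.06, 2.08 and 4.17 CPM in control libraries (edgeR adjusted p = 0.156). Irf4, a transcription factor needed to form plasma cells, had 4.33, 4.90 and 5.80 CPM in black rice libraries, against 11.4, 13.6 and 27.0 CPM in control libraries, a log2 fold change of -1.79 ± 0.38 (edgeR adjusted p = 0.162). The groups did not touch for any of the 3 genes. Pou2af1, a coactivator of immunoglobulin genes in B lineage cells, had 5.30, 3.19 and 12.2 CPM in black rice libraries, against 20.2, 24.1 and 63.7 CPM in control libraries. Mzb1, a chaperone of antibody assembly, had 0.332, 0.273 and 0.612 CPM in black rice libraries, against 1.85, 1.11 and 3.70 CPM in control libraries. Xbp1, which drives the secretory programme in plasma cells and also acts in epithelial secretory cells, differed less, with 178, 127 and 125 CPM in black rice libraries, against 211, 210 and 247 CPM in control libraries. The groups overlapped for Txndc5, Sdc1, Fkbp11 and Prdm1, of which Sdc1 and Prdm1 are transcribed in epithelium as well. In M-coded libraries the median log2 fold change was -1.03 for the immunoglobulin list and -0.04 for the plasma cell list. The F minus M difference was -1.98 ± 0.62 for Igha (edgeR adjusted p = 0.414) and -2.33 ± 0.48 for Derl3 (edgeR adjusted p = 0.175), so a difference between the codes was not established for either.

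Follicular B cell transcripts were lower too, with overlap between the diets. All 16 B cell and follicle genes were lower with black rice, with a median log2 fold change of -1.97. Only 1 of them separated the groups, against 11% of all genes. Within each diet the mean level of the B cell list ranked the libraries as that of the immunoglobulin list did. Ms4a1, the B cell surface protein CD20, had 1.33, 1.09 and 23.3 CPM in black rice libraries, against 7.94, 34.4 and 78.6 CPM in control libraries. Black rice replicate 3 thus lay above control replicate 1 for Ms4a1, and Cd79b of the B cell receptor had the same order, at 1.72, 1.79 and 18.4 CPM against 9.25, 24.4 and 54 CPM. For Igha the same pair of libraries stood the other way round, 356 CPM in black rice replicate 3 and 1626 CPM in control replicate 1. The median log2 fold change of the B cell list was -4.38 without black rice replicate 3, -1.03 without control replicate 3 and -0.80 with the mean level of smooth muscle genes as a covariate.

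T cell transcripts were lower in smaller measure. Of 22 T and NK cell genes, 21 were lower, 10 without overlap, against 11% of all genes, and the median log2 fold change was -0.87. The mean log2 CPM of the list was 2.072, 2.016 and 0.981 in black rice libraries, against 2.583, 2.076 and 2.783 in control libraries. WT libraries stood at 1.764, 1.689 and 2.077, below 2 of the control libraries and near black rice replicates 1 and 2. In M-coded libraries 20 of the 22 genes were lower as well, with a median of -0.67. Tcf7, the factor TCF1 of naive and memory T cells, which is also made in some epithelial cells, had 5.93, 6.72 and 9.14 CPM in black rice libraries, against 12.2, 20 and 22.3 CPM in control libraries, a log2 fold change of -1.32 ± 0.28 (edgeR adjusted p = 0.162, limma-voom adjusted p = 0.0204). Cd28, the costimulatory receptor, had 3.43, 2.68 and 1.71 CPM in black rice libraries, against 5.79, 4.22 and 11 CPM in control libraries (edgeR adjusted p = 0.292). Cd4 had 9.15, 9.20 and 10.3 CPM in black rice libraries, against 19.5, 12.5 and 30.1 CPM in control libraries. For these genes the lowest control library lay above the highest black rice library. Cd2 behaved alike, whereas the cytotoxic genes Cd8a, Gzmb and Nkg7 overlapped between the diets. Eomes, a factor of cytotoxic and memory cells, was the only member on the other side, at 0.975, 1.37 and 0.575 CPM in black rice libraries, against 0.878, 0.222 and 0.797 CPM in control libraries.

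Myeloid transcripts were mixed. Of 15 macrophage genes, 13 were lower and 3 of them separated the groups, against 11% of all genes. Cx3cr1, the fractalkine receptor of resident gut macrophages, had 6.14, 7.65 and 6.36 CPM in black rice libraries, against 17.7, 12.1 and 17.4 CPM in control libraries (log2 fold change -1.23 ± 0.35, edgeR adjusted p = 0.317). Apoe, a lipid carrier secreted by macrophages, had 242, 329 and 288 CPM in black rice libraries, against 479, 386 and 495 CPM in control libraries. Cyba, a subunit of the NADPH oxidase, was the third. Cd163, the haemoglobin scavenger receptor, ran the other way with 14.2, 33 and 10.4 CPM in black rice libraries, against 8.33, 6.94 and 8.71 CPM in control libraries. The 9 MHC class II genes were all lower, and 2 of them separated the groups, against 11% of all genes. These were Cd74, the invariant chain, and Ciita, the activator of class II genes. Cd74 had 287, 373 and 264 CPM in black rice libraries, against 637, 405 and 807 CPM in control libraries. Neutrophil genes showed no separation in 9 tested.

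Prg2, the major basic protein of eosinophil granules, was among the genes of smallest p. It had 0.273, 0.237 and 0.241 CPM in black rice libraries, against 0.971, 0.787 and 1.21 CPM in control libraries and 0.863, 0.870 and 0.457 CPM in WT libraries. The log2 fold change was -1.97 ± 0.30, with an adjusted p of 0.0538 in edgeR, 0.0247 in limma-voom and 2.03e-05 in DESeq2, and the M contrast was -1.51. The level is low, and the other eosinophil genes did not go with it. Epx, Ear1 and Ear6 were too low to test, Siglecf had 3, 2.26 and 1.06 CPM in black rice libraries, against 3.81, 3.61 and 2.8 CPM in control libraries, and 5 of the 8 eosinophil genes tested were higher with black rice. Mcpt1, a protease of mucosal mast cells, was lower in every black rice library, at 0.819, 1.37 and 0.26 CPM, against 6.93, 2.52 and 1.55 CPM in control libraries (edgeR adjusted p = 0.491), but 6 of the 8 mast cell genes tested had positive fold changes.

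Interferon-induced genes did not follow the lymphocytes. Of 20 interferon response genes, 19 had positive fold changes, yet none separated the groups. Black rice replicate 3 was the lowest of the 6 libraries in the mean level of the list, at 3.33 on the log2 CPM scale. Black rice replicates 1 and 2 stood at 6.28 and 5.92. Control libraries stood at 6.12, 4.72 and 4.57, so control replicate 1 lay above black rice replicates 2 and 3. Iigp1, a GTPase induced by interferon gamma, had 311, 185 and 14.9 CPM in black rice libraries, against 107, 24.9 and 37.3 CPM in control libraries. Gbp7, another such GTPase, had 69.7, 54.8 and 18.2 CPM in black rice libraries, against 22.8, 16.4 and 20.5 CPM in control libraries (edgeR adjusted p = 0.41).

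**Figure D2:**
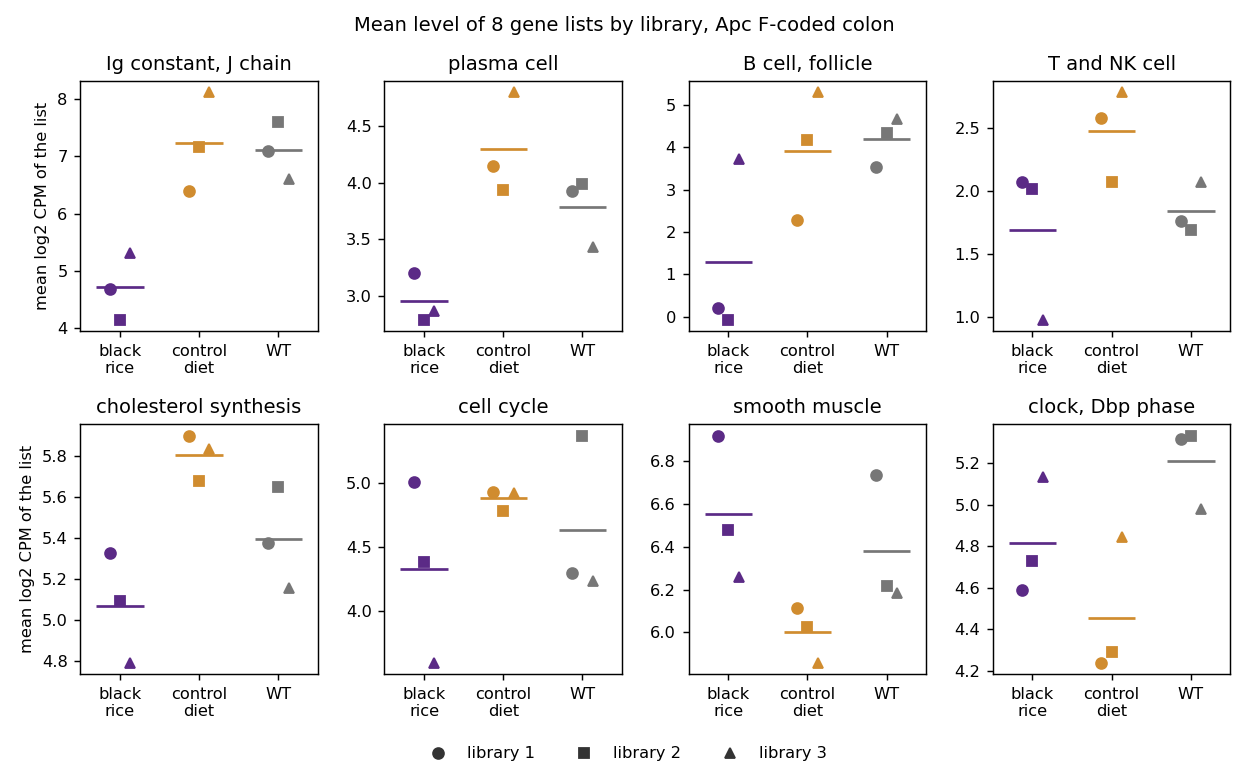
Mean log2 CPM of 8 gene lists in each library, with black rice left of control and WT at the right. Immunoglobulin, plasma cell, T and NK cell and cholesterol synthesis lists lie lower in every black rice library than in every control library, and smooth muscle lies higher. The immunoglobulin list is at 4.15 to 5.32 against 6.4 to 8.12. For the T and NK cell list the gap is narrow, 2.072 against 2.076. The B cell list has black rice replicate 3 at 3.72 between control replicates 1 and 2.

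Genes of cholesterol synthesis were lower with black rice along the whole pathway. All 20 genes were lower, 15 without overlap, against 11% of all genes, and the median log2 fold change was -0.68. An unadjusted p under 0.05 was found for 10 of them, against 5.73% of all genes on the lower side. None passed in edgeR, the smallest adjusted p being 0.308, and DESeq2 called 1 of them. Hmgcs1 makes HMG-CoA at the entry to the pathway. It had 171, 120 and 88.8 CPM in black rice libraries, against 264, 220 and 276 CPM in control libraries (log2 fold change -1.0 ± 0.39, edgeR adjusted p = 0.422). It was lower in every black rice library, with replicate 3 lowest. Mvd, which makes isopentenyl diphosphate, had 14.8, 13.4 and 13.2 CPM in black rice libraries, against 35.7, 27.7 and 34.8 CPM in control libraries (log2 fold change -1.25 ± 0.34, edgeR adjusted p = 0.308, DESeq2 adjusted p = 0.0408).

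The sterol-forming steps had the same order. Sqle, the epoxidase of squalene, had 56.8, 38.1 and 25.7 CPM in black rice libraries, against 83.7, 81.2 and 96.1 CPM in control libraries. Lss, which closes the sterol ring system, had 34.9, 26.6 and 20.9 CPM in black rice libraries, against 59.7, 52.1 and 65.2 CPM in control libraries, a log2 fold change of -1.11 ± 0.33 (edgeR adjusted p = 0.341). Fdps, the synthase of farnesyl diphosphate, had 7.84, 5.23 and 3.17 CPM in black rice libraries, against 12.7, 9.54 and 13.7 CPM in control libraries. The groups were apart for all 3, and they overlapped for Cyp51, Ebp, Idi1 and Sc5d, among others. The mean level of the list was 5.33, 5.09 and 4.79 on the log2 CPM scale in black rice libraries, against 5.90, 5.68 and 5.83 in control libraries and 5.37, 5.65 and 5.16 in WT libraries. Black rice replicate 1 lay within the WT range and the other black rice libraries below it, whereas every control library lay above it.

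Of the 17 genes of cholesterol uptake, sensing and efflux, 12 were lower and 7 of these did not overlap, against 11% of all genes. Srebf2, the gene of SREBP2, had 121, 117 and 95.1 CPM in black rice libraries, against 170, 135 and 153 CPM in control libraries. It separated the diets, as did Insig1 and Scap, partners of SREBP2 in sterol sensing, Stard4 and Soat2, whereas the sterol exporters Abca1, Abcg5 and Abcg8 overlapped. Among genes of fatty acid synthesis, Srebf1 and Scd2 were lower in every black rice library, Scd2 with 550, 375 and 480 CPM against 834, 1002 and 1190 CPM in control libraries. Scd1 was spread by 1 library, black rice replicate 2 at 1354 CPM, against 317 and 62.9 CPM in the other black rice libraries and 107 to 235 CPM in control libraries.

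In M-coded libraries the cholesterol genes stood the other way. Of the 20 synthesis genes, 19 had a positive M fold change, with a median of 1.35. Lss averaged 27.4 ± 7.05 CPM in black rice F libraries and 59.0 ± 6.59 CPM in control F libraries, and 82.5 ± 46.3 CPM in black rice M libraries and 19.2 ± 2.07 CPM in control M libraries (SD, n = 3 each). The F minus M difference in log2 fold change was -3.21 ± 0.47 for Lss, with an edgeR adjusted p of 0.0653, the smallest in that contrast, and 18 of the 20 synthesis genes had an unadjusted p under 0.05 in it, against 8.89% of all genes. None passed, so the opposite order in F and M was not established gene by gene. On the positive side stood Depp1, Crim1 and Pck1, the gluconeogenic enzyme PEPCK. Pck1 had 91.4, 134 and 111 CPM in black rice F libraries, against 65.9, 53.7 and 69.5 CPM in control F libraries (log2 fold change 0.83 ± 0.20, edgeR adjusted p = 0.236), and its M fold change was -0.64.

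**Figure D3:**
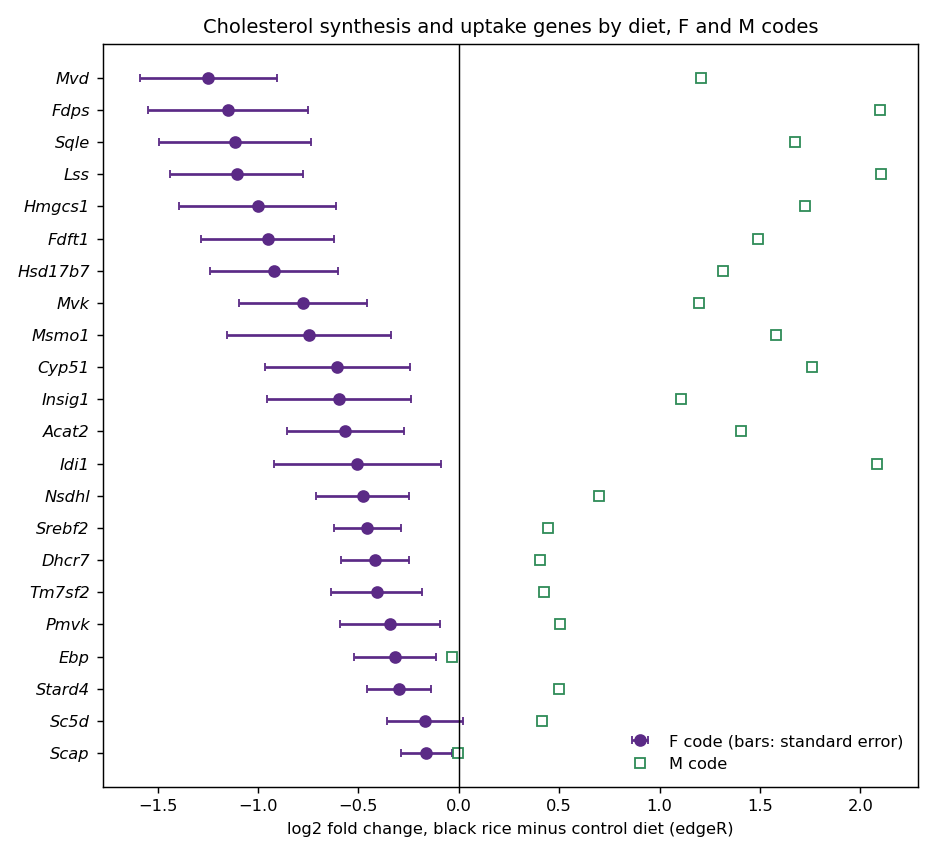
Log2 fold change of black rice over control for 18 cholesterol synthesis and 4 uptake and sensing genes, F-coded libraries with bars of 1 standard error and M-coded libraries as a second marker. F values of the synthesis genes drawn lie between -1.25 and -0.17, and 17 of their M values lie above 0.

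SREBP2 binds sterol elements in promoters, so the promoter of a pathway gene is shown with the letters that match the core of such an element. The core TCACNCCAC was searched on both strands of RefSeq promoters (build GRCm38.p6, 250 bases before to 50 after the start). It was found in 408 of 32851 promoters (1.24%), and in 1 of the 18 promoters of the 15 synthesis genes that matched the table (5.56%), that of Hmgcs1. None of the 17 promoters of 12 matched uptake genes held it, and Sqle had no entry. The promoter of Hmgcs1 lies at chr13:119690101-119690400 on the plus strand, and the capitals mark the match, 137 bases before the start.
Hmgcs1: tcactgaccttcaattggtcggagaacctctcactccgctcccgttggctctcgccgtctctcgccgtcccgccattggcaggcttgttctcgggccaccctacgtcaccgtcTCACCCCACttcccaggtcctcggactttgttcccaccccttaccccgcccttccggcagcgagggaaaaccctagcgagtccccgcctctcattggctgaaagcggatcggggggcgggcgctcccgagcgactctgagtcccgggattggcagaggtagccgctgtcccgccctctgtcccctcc
The match is a description of letters in this window and no measure of binding. Beside these letters stand the levels given above for Hmgcs1, lower in all 3 black rice libraries than in any control library.

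Of 29 cell cycle genes, 26 were lower and 6 separated the groups, against 11% of all genes. These were Mcm2, Mcm3, Mcm4, Mcm5 and Mcm7, subunits of the helicase that opens DNA for replication, and Ccne1, the cyclin of entry into S phase. Mcm3 had 25.7, 19 and 14 CPM in black rice libraries, against 35.9, 33.2 and 33.5 CPM in control libraries (log2 fold change -0.80 ± 0.27, edgeR adjusted p = 0.386). The mean level of the list was 5.0, 4.38 and 3.60 in black rice libraries on the log2 CPM scale, against 4.93, 4.78 and 4.92 in control libraries, so black rice replicate 1 lay above all controls and replicate 3 far below. Mki67, the proliferation marker Ki-67, had 323, 157 and 104 CPM in black rice libraries, against 173, 152 and 239 CPM in control libraries, and its log2 fold change of 0.05 ± 0.38 changed sign under some settings. Of 17 genes of the unfolded protein and stress response, 16 were lower, with Pdia4, an isomerase of protein disulphides, at 106, 74.2 and 82.4 CPM in black rice libraries, against 124, 125 and 144 CPM in control libraries. Plasma cell genes stood lower in the same libraries, and their part in this group was not tested. Shmt2, a mitochondrial enzyme of serine use, was lower in each black rice library too, at 18.3, 17.8 and 20.4 CPM, against 27.4, 24.2 and 26.8 CPM in control libraries.

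The epithelium held most of its identity genes at similar levels, and 2 of 14 separated the diets, both lower, against 11% of all genes. Pigr, the receptor that carries IgA across the epithelium, had 3013, 3033 and 4219 CPM in black rice libraries, against 6190, 5208 and 5093 CPM in control libraries (log2 fold change -0.68 ± 0.26, edgeR adjusted p = 0.417). Nox1, the NADPH oxidase of colonic epithelium, had 6.75, 7.91 and 11.3 CPM in black rice libraries, against 23.1, 33.9 and 46.5 CPM in control libraries (log2 fold change -1.99 ± 0.70, edgeR adjusted p = 0.386). Both were lower in every black rice library, which held for 2 of the 15 antimicrobial and oxidase genes, against 11% of all genes. Reg3g, a bactericidal lectin, had 4.21, 10.1 and 0.315 CPM in black rice libraries, against 193, 15.9 and 4.31 CPM in control libraries, and the median of that list was -1.16 with all libraries and -0.30 without control replicate 1. Cdx1, a transcription factor of intestinal identity, had 157, 163 and 200 CPM in black rice libraries, against 258, 242 and 238 CPM in control libraries. Krt19 was lower without overlap as well, and the other 12 of 14 identity genes overlapped.

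Slc26a3, the chloride and bicarbonate exchanger of surface colonocytes, was higher in every black rice library, at 992, 738 and 1960 CPM, against 152, 355 and 683 CPM in control libraries (log2 fold change 1.63 ± 0.66, edgeR adjusted p = 0.43). WT libraries held it at 1423, 1527 and 730 CPM. It was the only one of 19 colonocyte transport genes to separate the groups, against 9.45% of all genes. Tjp1, the scaffold ZO-1 of tight junctions, had 155, 179 and 190 CPM in black rice libraries, against 106, 114 and 134 CPM in control libraries (log2 fold change 0.56 ± 0.18, edgeR adjusted p = 0.369). Ocln, the junction protein occludin, had 89.2, 110 and 131 CPM in black rice libraries, against 79.7, 81.6 and 72.5 CPM in control libraries. Both lay apart, the 2 of 15 tight junction genes that were higher in every black rice library, against 9.45% of all genes. Cldn7 was lower, and 7 of the 15 had positive fold changes.

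Apc itself had 181, 189 and 183 CPM in black rice libraries, against 136, 126 and 137 CPM in control libraries and 170, 121 and 120 CPM in WT libraries (log2 fold change 0.47 ± 0.20, edgeR adjusted p = 0.443). The labels do not say which part of the gene, if any, was altered, so its level does not check the genotype. Of 21 Wnt target and stem cell genes tested, 1 lay higher without overlap and 2 lower, against 9.45% and 11% of all genes. Their median log2 fold change was -0.06, and the lowest was that of Tcf7, described above. The Wnt target Axin2 and the stem cell gene Lgr5 did not separate the groups. Axin2, a feedback inhibitor of the pathway, had 38.8, 38.6 and 26.8 CPM in black rice libraries, against 37.8, 47.5 and 43.1 CPM in control libraries. Lgr5, the marker of crypt stem cells, had 24.7, 20.1 and 21.5 CPM in black rice libraries, against 18.9, 28.1 and 18 CPM in control libraries. Targets of the aryl hydrocarbon receptor, which plant compounds can activate, were near even. Tiparp had 31.4, 32.2 and 27 CPM in black rice libraries, against 24.2, 22.3 and 23.5 CPM in control libraries (log2 fold change 0.37 ± 0.14, edgeR adjusted p = 0.41). Ahr, Ahrr and Cyp1b1 overlapped between the diets, with log2 fold changes of 0.11, -0.12 and 0.66, and Cyp1a1 was too low to test. Pnliprp2, a lipase, had 7.76, 1.42 and 2.04 CPM in black rice libraries, against 1.27, 1.80 and 1.70 CPM in control libraries, and its M fold change was 6.19.

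Smooth muscle transcripts were higher with black rice. All 15 genes had positive fold changes, 7 separated the groups, against 9.45% of all genes, and the median log2 fold change was 0.47. Synpo2, an actin-binding protein of muscle, had 338, 193 and 144 CPM in black rice libraries, against 104, 95.0 and 112 CPM in control libraries (log2 fold change 1.12 ± 0.33, edgeR adjusted p = 0.338). Myh11, the smooth muscle myosin heavy chain, had 1859, 1424 and 1218 CPM in black rice libraries, against 1068, 968 and 896 CPM in control libraries. Myocd, the coactivator that sets the smooth muscle programme, had 9.05, 6.92 and 5.67 CPM in black rice libraries, against 3.77, 3.77 and 4.31 CPM in control libraries. Every black rice library was above every control library for these genes, with replicate 1 highest. Summed over the list, muscle genes took 4126 to 6574 CPM in black rice libraries, against 3268 to 3514 CPM in control libraries and 3890 to 5821 CPM in WT libraries. The M fold changes of the list had a median of 0.49. With the mean level of these genes as a covariate, the immunoglobulin median was -2.74 and the cholesterol synthesis median -0.86, both farther below 0 than without it, while the T and NK cell median was -0.49 and the B cell median -0.80, both nearer to 0.

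Fibroblast and matrix genes were higher to a smaller degree, 19 of 20, with 5 that separated the groups, against 9.45% of all genes. Lum, the collagen-binding proteoglycan lumican, had 77.1, 123 and 62.1 CPM in black rice libraries, against 25.2, 45.9 and 49.9 CPM in control libraries (log2 fold change 1.11 ± 0.44, edgeR adjusted p = 0.428). Postn, the matrix protein periostin, had 418, 449 and 487 CPM in black rice libraries, against 295, 293 and 333 CPM in control libraries. The collagen gene Col1a1 was even, at 51.4, 69.8 and 70.3 CPM in black rice libraries, against 71.4, 49.7 and 69.6 CPM in control libraries. Of 16 enteric neuron and glia genes, 15 had positive fold changes but only 1 of them separated the groups, against 9.45% of all genes. Fat cell genes varied by library: their mean level was 4.73, 6.56 and 1.55 in black rice libraries on the log2 CPM scale, against 4.82, 3.55 and 2.52 in control libraries.

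**Figure D4:**
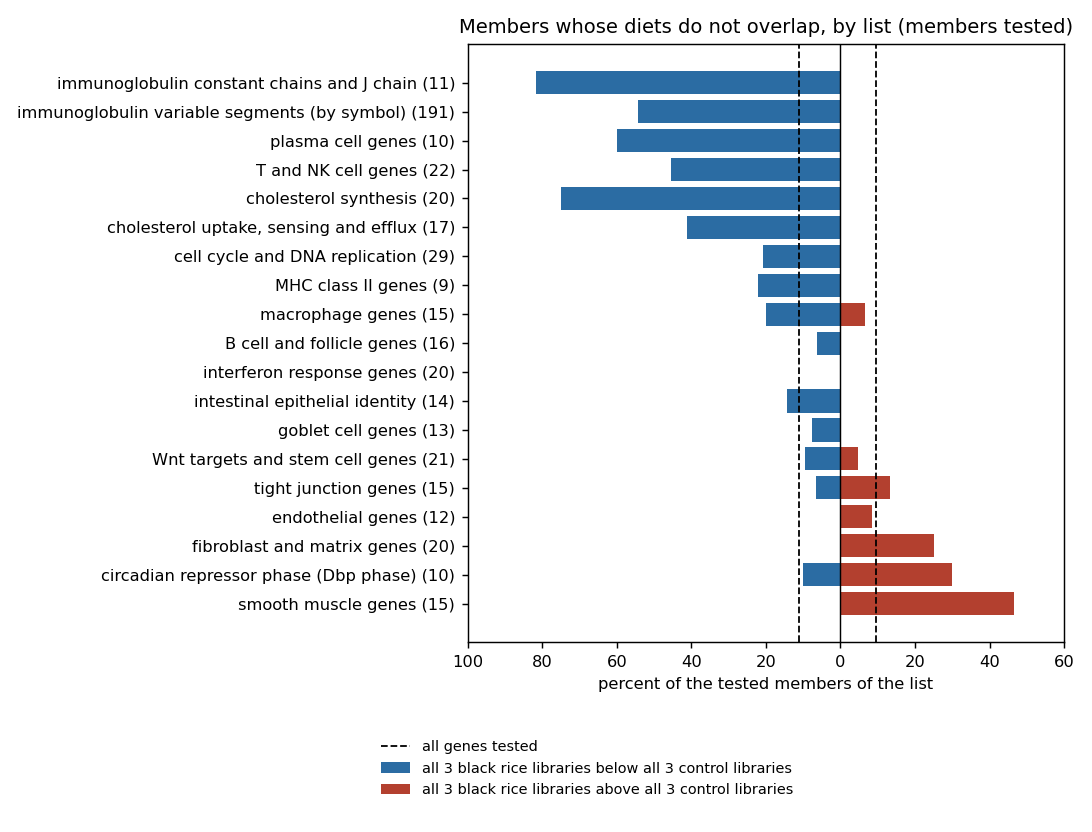
Percentage of the members of 19 gene lists whose 3 black rice libraries all lie below (bars to the left) or all above (bars to the right) the 3 control libraries, with dashed lines at the share over all genes, 11% and 9.45%. Immunoglobulin, plasma cell and cholesterol synthesis lists reach farthest on the lower side and smooth muscle on the higher side.

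Output genes of the circadian clock were higher with black rice, with an exception. The clock runs on the activators CLOCK and BMAL1, which bind E-boxes and switch on Per, Nr1d and PAR bZIP genes, and the PAR bZIP factors act on D-boxes. Of 10 genes of the phase in which Dbp peaks, 9 had positive fold changes. Of these, 3 lay above the controls in every library, against 9.45% of all genes. Nr1d2, the repressor REV-ERB beta, had 112, 145 and 185 CPM in black rice libraries, against 63.8, 73 and 90.6 CPM in control libraries and 141, 162 and 142 CPM in WT libraries. Its log2 fold change was 0.96 ± 0.20, with an adjusted p of 0.161 in edgeR, 0.0277 in limma-voom and 0.0028 in DESeq2. Per1, a period repressor, had 51.4, 40.9 and 47.8 CPM in black rice libraries, against 29.5, 20 and 38.9 CPM in control libraries (edgeR adjusted p = 0.384). Both separated the groups, as did Hlf, at 13.1, 16.3 and 16.4 CPM in black rice libraries, against 7.36, 10.8 and 12.8 CPM in control libraries. Bhlhe41, a repressor that also reads E-boxes, was lower instead, at 1.66, 1.22 and 2.11 CPM in black rice libraries, against 2.54, 3.95 and 3.86 CPM in control libraries (log2 fold change -1.05 ± 0.28, edgeR adjusted p = 0.295, limma-voom adjusted p = 0.0358).

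The remaining 6 genes of that phase overlapped, Dbp with 8.48, 14.5 and 22 CPM in black rice libraries, against 8.28, 9.6 and 14.1 CPM in control libraries. Arntl, the gene of BMAL1, which peaks in the opposite phase, had 25.5, 29.5 and 36 CPM in black rice libraries, against 35.6, 39.7 and 28.4 CPM in control libraries, and the 6 genes of its phase had a median log2 fold change of 0.02. The labels give no hour of collection, so diet and hour cannot be told apart for these genes. The E-box CACGTG, which reads the same on both strands, was found in 2349 of 32851 RefSeq promoters (7.15%) and in 5 of 11 promoters of the Dbp phase list (45.5%), from 4 of the 9 genes matched. The D-box core TTATGNAA, searched on both strands, was in 1112 promoters (3.38%) and in 2 of these 11 (18.2%), those of Per1 and Per3. Per1 is the one of them with both, and its promoter is shown for that reason. It lies at chr11:69098699-69098998 (GRCm38.p6, plus strand, RefSeq), and capitals mark the E-box 166 bases and the D-box 24 bases before the start.
Per1: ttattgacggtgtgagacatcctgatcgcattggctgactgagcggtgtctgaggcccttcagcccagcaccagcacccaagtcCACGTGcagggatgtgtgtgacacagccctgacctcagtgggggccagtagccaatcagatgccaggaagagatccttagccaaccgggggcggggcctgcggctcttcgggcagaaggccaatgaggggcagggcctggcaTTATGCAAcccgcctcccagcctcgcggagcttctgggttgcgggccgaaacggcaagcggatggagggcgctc
Neither match is a measure of binding.

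The genes with the smallest p on the higher side are given as a description, since a small p selects genes that are even within groups and apart between them. Tsc22d2, a leucine zipper family member, had 46.3, 38.4 and 37.5 CPM in black rice libraries, against 27.2, 27.6 and 28.3 CPM in control libraries (log2 fold change 0.56 ± 0.10, edgeR adjusted p = 0.122). Art3, a member of the ADP-ribosyltransferase family, had 27, 34.2 and 21.9 CPM in black rice libraries, against 14.6, 14.2 and 12.9 CPM in control libraries (log2 fold change 0.99 ± 0.19, edgeR adjusted p = 0.122). Adamts5, a protease of the matrix proteoglycan aggrecan, had 5.93, 8.71 and 6.93 CPM in black rice libraries, against 3.18, 3.39 and 3.80 CPM in control libraries. The lowest black rice library lay above the highest control library for each. Mpp5, the polarity scaffold PALS1 of epithelial junctions, had 91.7, 83.7 and 94.9 CPM in black rice libraries, against 55.4, 52.1 and 53.2 CPM in control libraries (log2 fold change 0.75 ± 0.15, edgeR adjusted p = 0.124). Hnf4g, a nuclear receptor of enterocytes, had 35.3, 43 and 29.2 CPM in black rice libraries, against 23, 21.7 and 21.5 CPM in control libraries. Fbxo30, Fgd4, Arhgap5, Fam171b, Nek1, Ric3, Pnpla8, Acvr2a and Lysmd3 made up the rest of the 15 with Nr1d2.

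On the lower side, the 15 genes of smallest p included Derl3, Igha, Igkc, Jchain, Irf4, Pou2af1 and Tcf7, described above. Fem1a, a substrate receptor of a ubiquitin ligase, had 34.3, 27.5 and 29.2 CPM in black rice libraries, against 45.3, 46 and 48 CPM in control libraries (log2 fold change -0.61 ± 0.12, edgeR adjusted p = 0.122). Plcg2, the phospholipase of B cell receptor signalling, which is also found in tuft cells, had 11.1, 9.98 and 14.2 CPM in black rice libraries, against 18.5, 22.4 and 41 CPM in control libraries. AI662270 had 2.13, 2.46 and 1.98 CPM in black rice libraries, against 5.75, 5.41 and 7.63 CPM in control libraries (log2 fold change -1.51 ± 0.25, edgeR adjusted p = 0.0653). Alad, an enzyme of haem synthesis, had 14.9, 14.2 and 13.9 CPM in black rice libraries, against 29.8, 25.3 and 17.7 CPM in control libraries. Basp1, Cnn2, Eif1ad and Tysnd1 made up the rest of the 15.

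The direction of a gene went with the base composition and length of its longest annotated transcript. The 14034 genes with a mean of at least 1 on the log2 CPM scale were sorted into 4 bins of equal size. The bin with the lowest GC content, 27.5 to 44.8%, had a median log2 fold change of 0.15, and 22% of its genes lay higher in all 3 black rice libraries. The bin with the highest GC content, 54.2 to 74.2%, had a median of -0.14, and 22.3% of its genes lay lower in all 3. The bin of longest transcripts, from 4780 bases, had 19.9% higher and 5.33% lower, and the bin of shortest transcripts 3.45% higher and 19.9% lower. In M-coded libraries the medians of the GC bins lay between -0.03 and -0.01, while those of the length bins ran in the same direction as in F, with -0.12 in the bin of shortest transcripts and 0.05 in the bin of longest, against -0.17 and 0.14 in F-coded libraries. The 36 genes called higher by both DESeq2 and limma-voom had a median length of 6189 bases and 41.7% GC, against 2766 bases and 49.2% over all genes tested.

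The library values did not overlap between the diets for GC or for length. In each library the deviation from the gene's mean over the 6 libraries was taken on the log2(CPM + 0.1) scale. Its median over the bin of highest GC minus that over the bin of lowest GC was -0.179, -0.071 and -0.172 in black rice libraries, against 0.238, 0.048 and 0.114 in control libraries. Between the bins of longest and shortest transcripts the same difference was 0.133, 0.186 and 0.106 in black rice libraries, against -0.261, -0.208 and 0.026 in control libraries. With an offset for GC and length in each library, chosen after seeing the data, no gene passed in edgeR and 1761 genes had an unadjusted p under 0.05, 835 higher and 926 lower. The median log2 fold change of the 15 genes of smallest p on the higher side was 0.46 with the offsets, against 0.75 without, and that of the 15 on the lower side was -1.18, against -1.32. The medians of the immunoglobulin, plasma cell and cholesterol synthesis lists were -2.44, -1.14 and -0.61 with the offsets, and that of smooth muscle was 0.67.

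**Figure D5:**
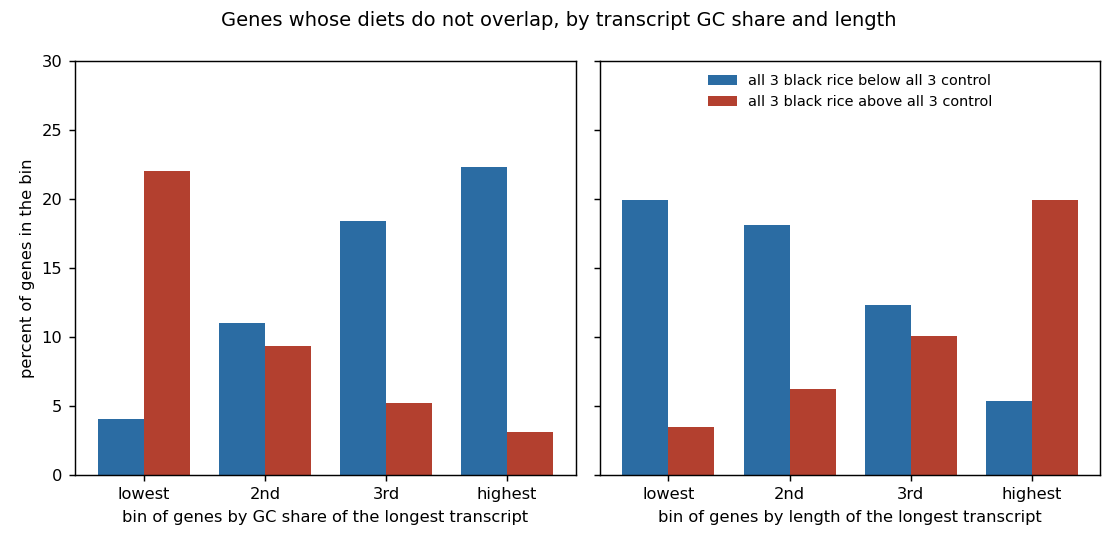
Percentage of genes whose 3 black rice libraries all lie below or all above the 3 control libraries, in 4 bins of genes by transcript GC content (left) and by transcript length (right). The share lying lower climbs to 22.3% in the bin of highest GC, and the share lying higher is 22% in the bin of lowest GC.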

How the data were processed

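The deposited values were raw counts of reads per gene, whole numbers without normalization; per the labels' protocols, RNA was extracted with Trizol, captured with oligo(dT) beads and sequenced on a DNBSEQ platform, and per the submitters' processing notes the authors used FastQC, fastp, HISAT2, SAMtools, featureCounts and Subread with GRCm39, versions not given in the sources used here. Whether counting used strand is not given, so overlapping and antisense genes cannot be told apart. Reads carry no molecular identifiers. The table held 55416 gene IDs, 52083 of which matched a symbol.

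The 18 Apc libraries were fitted in 6 groups with edgeR 4.0.16 in R 4.3.3 (filterByExpr with its minimum count of 10, TMM factors, quasi-likelihood F test with 12 residual degrees of freedom, two-sided, Benjamini-Hochberg over 21624 genes, threshold 0.05), which gave the black rice minus control difference in F libraries and its difference from that in M libraries. Limma 3.58.1 (voom with quality weights) and DESeq2 1.42.0, other size factors and filters, a robust fit, fewer libraries, a replicate block, a smooth muscle covariate and leaving out libraries were alternatives. No pair of replicates was identical, and the chi-square per degree of freedom between replicates was 109 to 375. Deviations of black rice and control F libraries with the same number correlated at 0.38, -0.003 and 0.421. Those of libraries with different numbers correlated at -0.577 to 0.337. The labels do not say whether the numbers pair the libraries, and these few values cannot decide it.

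The comparison, gene lists and rules were chosen with earlier results of these data known. Named genes were the 15 of smallest p in each direction (mean log2 CPM of at least 1, with a symbol, no predicted genes, pseudogenes or antigen receptor segments), up to 4 members of each list by smallest p, 11 genes always named, genes called by both other tools, and the 3 of smallest p in each direction of the F minus M difference; other list members are named by whether the groups overlapped. Some genes that these rules name are not reported here, and they remain in the counts and medians. Lists were described by counts and medians, with no set test. Lengths and GC content came from GENCODE M21 and promoters from RefSeq (GRCm38.p6), another build than the counts; matching was by gene ID or symbol.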

Additional observations from a re-analysis of the deposited data

How the results depend on the processing

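With edgeR, 0 genes passed in F libraries under other size factors, the robust fit, the compared groups or the 9 F libraries alone, the smooth muscle covariate and the GC and length offsets, against 201 with DESeq2, 103 with limma-voom, 15 without a filter and 3 (Derl3, Prg2 and Ighv9-3) at a filter of 1 CPM; leaving out 1 library gave 0 to 4, the 4 being Igkv4-68, Nuggc, Derl3 and Ighv9-3 without control replicate 1. The F minus M difference gave 0 genes in edgeR, 132 in DESeq2, 19 in limma-voom, 6 without a filter and 0 to 7 with 1 library left out, the 7 (among them Lss) without black rice replicate 1. With the replicate block 0 genes passed in either contrast, with 2143 and 1793 at an unadjusted p under 0.05; the libraries share only a number. Medians with 1 library left out ran from -2.65 to -1.92 for immunoglobulin constant chains, from -1.50 to -0.92 for plasma cell genes, from -0.86 to -0.58 for cholesterol synthesis and from 0.33 to 0.73 for smooth muscle genes, the last without black rice replicate 3; the smooth muscle median was -0.0111 with its own covariate. Of 252 list medians recomputed, 247 moved by less than the spread between replicates; those that moved include B cell genes (-4.38 without black rice replicate 3), antimicrobial genes (-0.30 without control replicate 1) and MHC class II genes (-0.49 with the smooth muscle covariate). Of 1775 single-gene values, 13 turned direction, all of genes near 0 or of low level: Cyp1b1 (-0.28 with the smooth muscle covariate; -0.77 to 1.13 with 1 library left out), Ahrr (0.0046 with limma-voom; -0.26 to 0.0897), Mki67 (-0.13 with the covariate, -0.15 with the offsets; -0.51 to 0.36) and Lgr5 (-0.13 with limma-voom, -0.0691 with the offsets; -0.073 to 0.28). The causes were not tested. At 3 libraries a group and 44.8 to 54.7 M reads, libraries of the same diet differed by 109 to 295 times the sampling variance. This value was summed over genes of at least 20 reads in a pair, and abundant genes weigh most in it. For genes of low level, such as Prg2, the part of counting in the spread was not tested.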

Other observations

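Secretory epithelial lineages were near even between the diets, with values that followed single libraries. Of 13 goblet cell genes, only Zg16, a lectin of the mucus layer, separated the groups, against 11% of all genes on the lower side. Zg16 had 1464, 1379 and 1678 CPM in black rice libraries, against 1725, 1900 and 2831 CPM in control libraries (edgeR adjusted p = 0.68). None of 12 tuft cell genes separated them. Among 14 enteroendocrine genes, Cpe, the carboxypeptidase that trims peptide hormones and is also made by neurons, was higher in every black rice library, at 140, 97.5 and 90 CPM, against 69.8, 85.2 and 80.2 CPM in control libraries (edgeR adjusted p = 0.465). Tph1, which makes serotonin in enterochromaffin cells, had 45.3, 32 and 16.6 CPM in black rice libraries, against 15.9, 18.6 and 12.1 CPM in control libraries, with overlap at replicate 3. Mptx1, a mucosal pentraxin, ranged from 1373 to 4417 CPM in black rice libraries and from 18.8 to 11280 CPM in control libraries.

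Among vessel genes, Lyve1 of lymphatic endothelium had 45.9, 53.7 and 49.1 CPM in black rice libraries, against 19.5, 32.7 and 36.5 CPM in control libraries (edgeR adjusted p = 0.474). The other 11 of 12 endothelial genes overlapped, and over all genes 9.45% lay higher without overlap. All 20 nuclear-encoded genes of oxidative phosphorylation had negative fold changes, with a median log2 fold change of -0.17. Only 2 of them separated the groups, against 11% of all genes, and 0 had an unadjusted edgeR p under 0.05. In M-coded libraries 18 of the 20 were negative too, with a median of -0.15. Of 13 mitochondrially encoded genes, 11 had positive fold changes, with a median of 0.21, and 1 separated the groups, against 9.45% of all genes. Apob, the structural protein of chylomicrons, was higher in every black rice library, at 304, 493 and 289 CPM, against 268, 211 and 122 CPM in control libraries (edgeR adjusted p = 0.474).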
